A study of Mus musculus with 531 samples.

Results

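The Polycomb complex subunits described here are 10 genes, taken by name from the 22084 genes of the count table and found once each: Ezh2, Eed, Suz12, Jarid2 and Mtf2 of the first complex (PRC2), and Rnf2, Ring1, Pcgf6, Cbx7 and Cbx2 of the second (PRC1). Their RNA was read in single cells of C57Bl/6Babr mouse embryos by scM&T-seq, a method that separates the RNA and the DNA of one cell, and the RNA was sequenced here by Smart-seq2. No allele, transgene or treatment differed between the groups, so stage and lineage were the only contrasts. The sex of each embryo is unknown. Of 264 cells, 217 held at least 50000 reads and 2000 detected genes and were kept: 75 from 5 embryos at E4.5, 59 from 1 embryo at E5.5 and 83 from 2 embryos at E6.5. The trophectoderm had been removed by immunosurgery at E4.5, the visceral endoderm and extraembryonic ectoderm had been pulled from the E5.5 epiblast, and the extraembryonic tissue had been dissected away by hand at E6.5. The E5.5 embryo is thus a single animal, and the prefix in the cell labels changes with the stage, so stage and prefix cannot be told apart. Within E4.5 the prefix was P1 for embryos 1 and 2 and P2 for embryos 3 to 5. Median reads per kept cell were 398206 and 471570.5 in the P1 embryos and 787502 to 1352841 in the P2 embryos.

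PRC2 places methyl groups on lysine 27 of histone H3, a mark of repressed developmental genes. Ezh2 is its catalytic subunit, Eed reads the mark that the enzyme has made, and Suz12 holds the core together. Jarid2 and Mtf2 are accessory subunits that bring the core to CpG-rich DNA, and they belong to different forms of the complex. PRC1 places ubiquitin on histone H2A through the ligases Rnf2 (Ring1B) and Ring1 (Ring1A). Pcgf6 marks a variant form that lacks the Polycomb Cbx readers, whereas Cbx7 and Cbx2 are alternative readers of the H3 mark in the canonical form. In embryonic stem cells Cbx7 is known as the prevailing reader, and Cbx2 as one that is used more after differentiation.

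Cells were placed in lineages from 41 marker genes, none of them a Polycomb gene, and the names carry "-like" because no sorting label was used. At E4.5, 19 cells were epiblast-like with 10 of 11 epiblast markers raised, and 51 were endoderm-like with 12 of 13 endoderm markers raised. Another 5 cells had 9 epiblast and 6 endoderm markers raised and stayed unnamed. At E5.5 there were 51 epiblast-like and 8 endoderm-like cells. At E6.5 there were 25 epiblast-like cells, 28 endoderm-like cells and 22 mesoderm-like cells, the last all from embryo 2, and 8 cells with no raised list stayed unnamed. The epiblast-like cells had 10 epiblast markers raised at E5.5, and 8 epiblast and 1 trophectoderm marker at E6.5. The mesoderm-like cells had 8 mesoderm, 5 endoderm and 4 epiblast markers raised. The endoderm-like cells of E5.5 had 9 endoderm, 4 mesoderm and 2 trophectoderm markers raised. Those of E6.5 had 11 endoderm, 2 epiblast, 1 mesoderm and 6 of 7 trophectoderm markers raised. The visceral endoderm transcript Ttr had a median of 594 CPM (read counts scaled to a total of 1e+06 per cell) in E6.5 epiblast-like cells and of 496 CPM in mesoderm-like cells, against 0 in the epiblast-like cells of E4.5 and E5.5. The 13 endoderm markers summed to 2350 and 2955 CPM in the E6.5 epiblast-like sums, against 17.5 to 127 CPM at E4.5, and all 13 had reads. In the same E6.5 epiblast-like sums the 11 epiblast markers came to 2076 and 2193 CPM, less than the endoderm markers, against 12080 to 16780 CPM in those of E4.5. The endoderm-like sums of E4.5 held 8 or more of the 11 epiblast markers at 5223 to 6363 CPM. The pluripotency factor Pou5f1 had a median of 529 CPM in E4.5 and of 199 CPM in E6.5 endoderm-like cells, against 1585 and 1231 CPM in epiblast-like cells. The part of these transcripts in the results at E4.5 and E6.5 was not tested. Median reads per kept cell ran from 398206 to 1511811 over the 8 embryos, and median detected genes from 5242 in the E5.5 embryo to 9416 in E6.5 embryo 2.

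The level of a gene is given in 2 ways. The first is the mean of log2(CPM + 1) over the cells of an embryo, which weighs each cell equally. The second is the CPM of the summed cells of an embryo, which was tested on the counts with edgeR's quasi-likelihood test with embryos as replicates. Adjusted p-values are Benjamini-Hochberg values from edgeR over all genes tested, and a gene was called when the adjusted p was under 0.05. In such sums, fewer cells with a transcript and less transcript per cell cannot be told apart.

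The results turn on Jarid2, a gene on chr13:44730774-44921643, and Eed, on chr7:89954654-89980976, and the 250 bases before a RefSeq start of each (GRCm38.p6, plus strand for Jarid2, minus strand for Eed) are shown with their CpG sites in capitals, since CpG density bears on where PRC2 itself binds. The Jarid2 window is chr13:44730524-44730773 and the Eed window chr7:89980977-89981226.
Jarid2: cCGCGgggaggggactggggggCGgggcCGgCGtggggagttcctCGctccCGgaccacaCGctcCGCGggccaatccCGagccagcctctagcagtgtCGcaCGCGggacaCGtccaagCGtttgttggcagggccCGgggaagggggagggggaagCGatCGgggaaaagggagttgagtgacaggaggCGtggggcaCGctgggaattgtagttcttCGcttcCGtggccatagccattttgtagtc
Eed: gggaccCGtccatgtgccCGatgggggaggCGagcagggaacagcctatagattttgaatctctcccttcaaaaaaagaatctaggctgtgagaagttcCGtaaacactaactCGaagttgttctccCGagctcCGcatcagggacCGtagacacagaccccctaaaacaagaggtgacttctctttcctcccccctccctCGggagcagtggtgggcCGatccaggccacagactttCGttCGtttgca
The Jarid2 window held 23 CpG sites and the Eed window 12, where the median of 32817 such windows was 6. The table held 11 windows for 9 of the 10 subunits, with 2 to 37 CpG sites. The POU octamer ATGCAAAT, searched on both strands, lay in 1.60% of all windows and in none of these 11, and the GATA motif AGATAA, searched in the same way, in 9.99% of all windows and in none of these 11.

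At E4.5, Jarid2 and Eed were lower in endoderm-like than in epiblast-like cells of the same embryo, and they were the only subunits called in that comparison. Jarid2 was 7.2-fold lower (log2 fold change -2.85 ± 0.44 SE, adjusted p = 1.74e-07, edgeR), and Eed was 2.9-fold lower (-1.54 ± 0.42 SE, adjusted p = 0.00585, edgeR). Both were lower in 4 of 4 embryos. These 2 calls among 10 subunits stand beside 10.8% of 15149 genes called in either direction and 4.01% called lower. DESeq2 called 4 subunits lower, adding Suz12 (adjusted p = 0.0287) and Pcgf6 (adjusted p = 0.00900), beside 23.4% of genes. The fit held 4 embryos with at least 3 cells of each lineage. The median log2 fold change was -0.71 over the 10 subunits and 0.18 over all genes tested.

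Jarid2 had levels of 7.58, 8.65, 8.88 and 8.41 on the log2(CPM + 1) scale in the epiblast-like cells of E4.5 embryos 1 to 4. In the endoderm-like cells of embryos 1 to 5 they were 4.98, 4.48, 6.09, 4.89 and 4.0. The highest endoderm-like embryo lay below the lowest epiblast-like embryo. The summed Jarid2 reads gave 238, 460, 474 and 472 CPM for the epiblast-like cells of embryos 1 to 4, and 70.6, 40.6, 74.7 and 51.8 CPM for their endoderm-like cells. Embryo 5 had only 2 epiblast-like cells, at 400 CPM, and 24.0 CPM in its 14 endoderm-like cells. In the epiblast-like sum of embryo 4, 1 of the 5 cells held 61.3% of the Jarid2 reads. Every epiblast-like cell of the 4 embryos (17 of 17) held a Jarid2 read, and 92.2% of endoderm-like cells did, or 68.6% once each cell was thinned to 50000 reads.

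Eed showed a smaller difference with the same direction in every embryo. Its levels were 7.16, 7.94, 7.32 and 7.92 in the epiblast-like cells of E4.5 embryos 1 to 4, and 5.95, 7.18, 5.48, 5.74 and 4.71 in the endoderm-like cells of embryos 1 to 5. The ranges touched, since endoderm-like cells of embryo 2 lay just above epiblast-like cells of embryo 1. In the epiblast-like sum of embryo 2, 1 of the 4 cells held 62.1% of the Eed reads. The Eed call was lost without E4.5 embryo 3 (log2 fold change -1.31, adjusted p = 0.0786, edgeR).

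**Figure D1:**
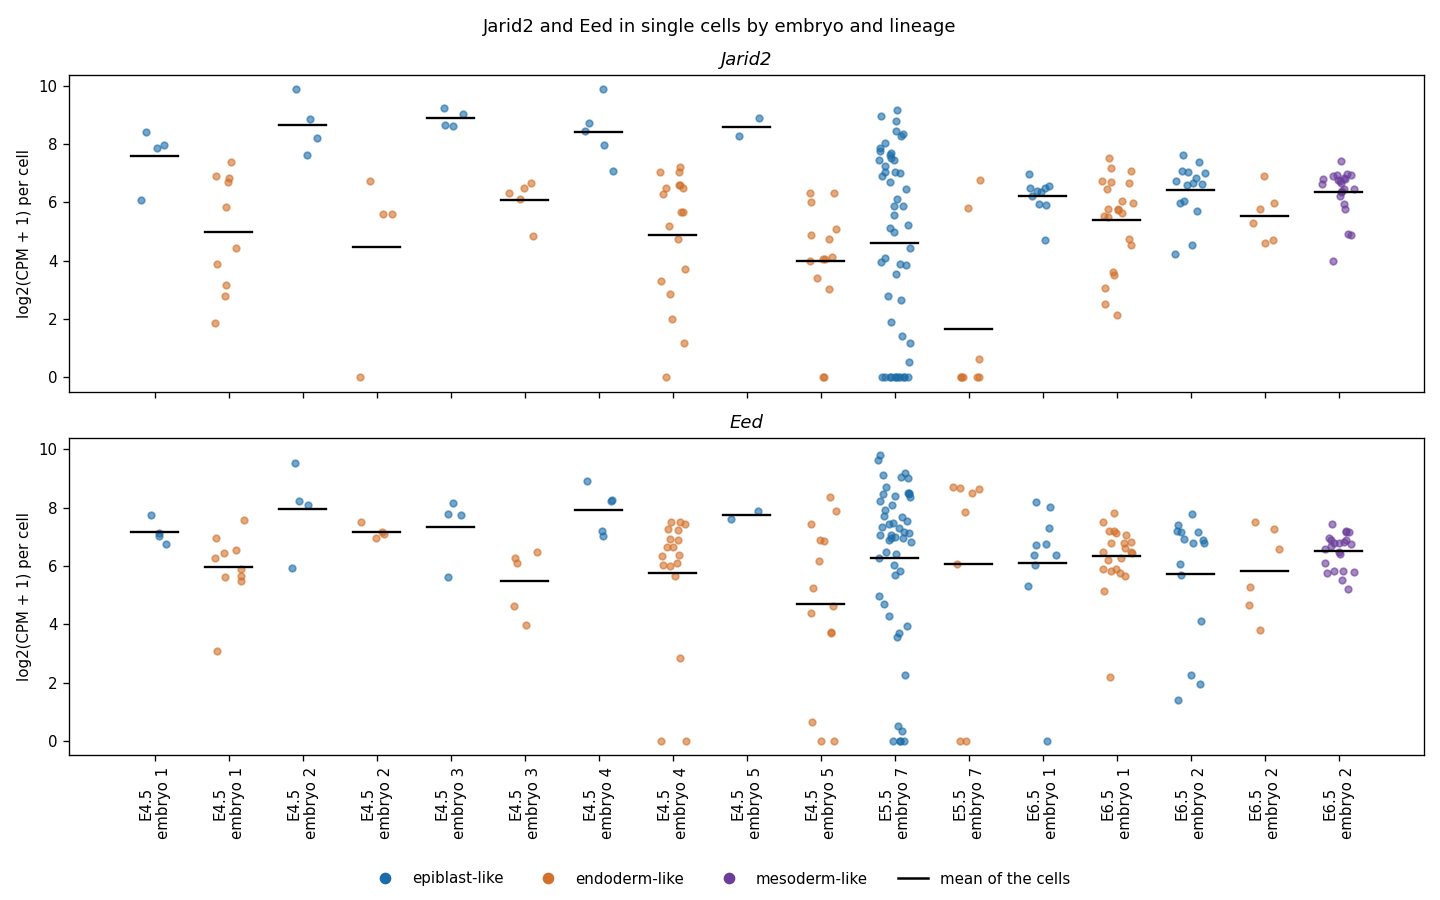
Jarid2 (top) and Eed (bottom) in single cells, as log2(CPM + 1) on the y axis, by embryo and lineage on the x axis; each point is a cell and each bar the mean of the cells, with embryo 5 of E4.5 holding only 2 epiblast-like cells. In E4.5 embryos 1 to 4 the Jarid2 bars of the epiblast-like cells lie between 7.58 and 8.88 and those of the endoderm-like cells between 4.48 and 6.09.

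The other core subunits of PRC2 did not pass the test at E4.5. Suz12 had an estimate of -1.18 ± 0.50 SE (adjusted p = 0.129, edgeR) and Ezh2 of -0.62 ± 0.43 SE (adjusted p = 0.461, edgeR). For Suz12 the level ranges were nonetheless apart, with 6.72 to 7.22 in 4 epiblast-like and 4.06 to 6.13 in 5 endoderm-like embryos. Mtf2, the accessory subunit of the other PRC2 form, had an estimate of -0.34 ± 0.35 SE (adjusted p = 0.668, edgeR), and its levels of 7.59 to 8.30 in endoderm-like embryos overlapped those of 8.06 to 8.45 in epiblast-like embryos.

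Among the PRC1 subunits none was called at E4.5 by edgeR with TMM scaling and all embryos. Pcgf6 missed the threshold (-1.86 ± 0.66 SE, adjusted p = 0.0536, edgeR) and was called lower by DESeq2, as given above, by edgeR with RLE scaling (adjusted p = 0.0421) and without E4.5 embryo 1 (-2.30, adjusted p = 0.0320). Its levels were 4.98, 5.45, 5.09 and 5.25 in the epiblast-like cells of embryos 1 to 4, and 2.95, 2.04, 2.73, 3.09 and 3.72 in the endoderm-like cells of embryos 1 to 5, with no overlap. Reads of Pcgf6 were found in 100% of epiblast-like cells and 72.5% of endoderm-like cells, or in 70.6% and 45.1% after thinning. In the epiblast-like sums of embryos 1, 2 and 3 a single cell held 52.9%, 73.5% and 59.5% of the Pcgf6 reads. Cbx7 had an estimate of -0.81 ± 0.46 SE (adjusted p = 0.311, edgeR), with overlapping levels. Rnf2 had levels of 4.20 to 6.58 in epiblast-like and 4.38 to 6.24 in endoderm-like embryos, which cover nearly the same span. Ring1 and Cbx2 were read in few cells of E4.5. Ring1 had reads in 3 of 17 epiblast-like and 20 of 51 endoderm-like cells, and Cbx2 in 5 of 17 and 17 of 51. Their estimates were 0.71 ± 1.91 SE for Ring1 (adjusted p = 0.926, edgeR) and 0.52 ± 1.30 SE for Cbx2 (adjusted p = 0.916, edgeR).

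Counting non-overlap by itself, 3 of the 10 subunits (Jarid2, Suz12 and Pcgf6) had endoderm-like levels wholly below the epiblast-like ones at E4.5, and none lay wholly above. Over 11675 genes with a mean of at least 1 CPM the shares were 7.44% below and 9.66% above.

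**Figure D2:**
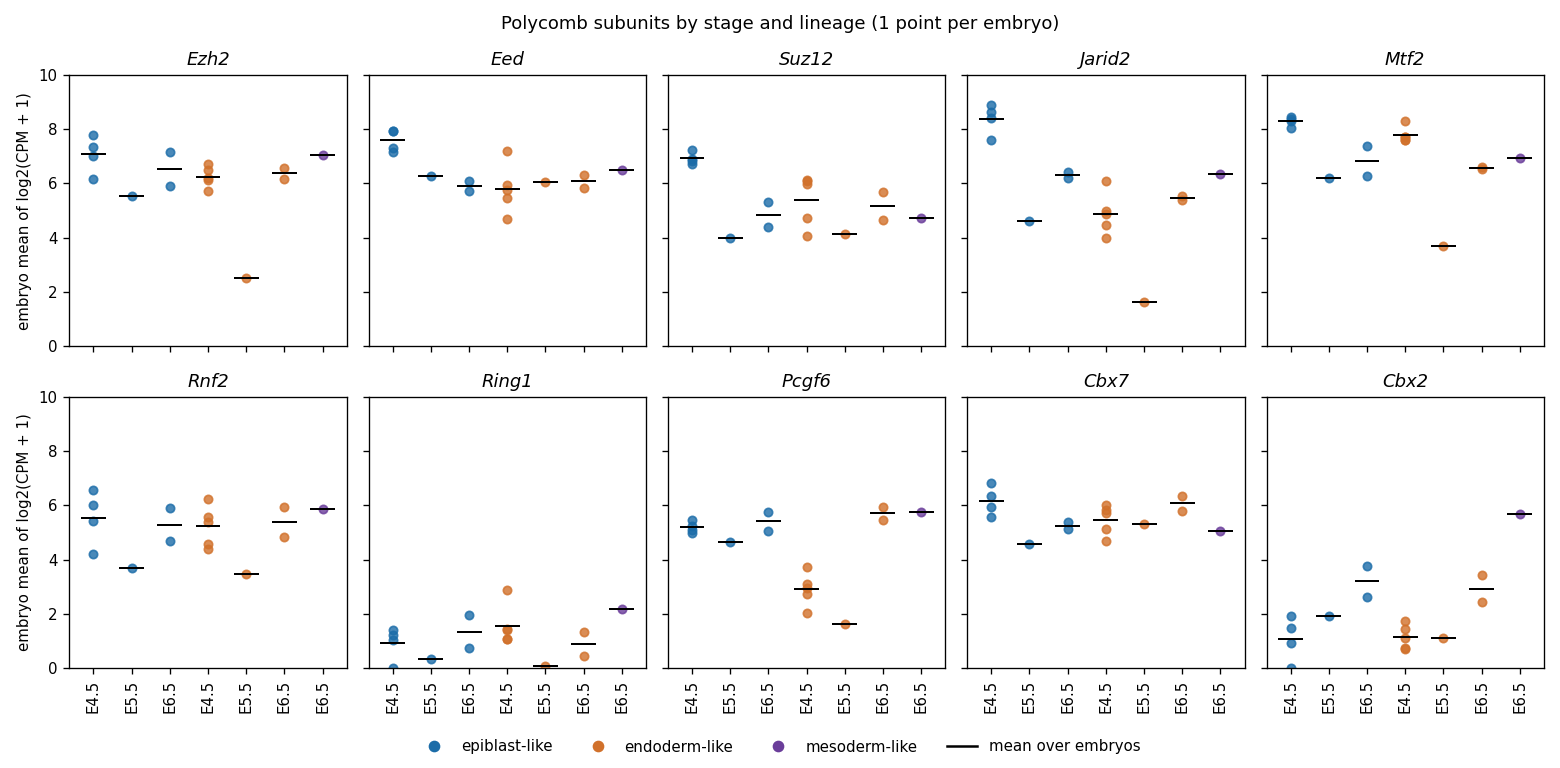
Mean of log2(CPM + 1) over the cells of an embryo (y axis) for each of the 10 subunits, by stage (x axis) and lineage (colour); each point is an embryo with at least 3 cells of that lineage and each bar the mean over embryos. Jarid2 spans 7.58 to 8.88 in E4.5 epiblast-like embryos, above each other group of that gene, and Cbx2 stands highest in the E6.5 mesoderm-like cells at 5.69.

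Within the epiblast-like cells, Jarid2 fell from E4.5 to E6.5 by 2.36 on the log2 scale, and it was the only subunit called (SE 0.43, adjusted p = 0.00767, edgeR, 4 embryos against 2). In counts simulated with known changes, the share of false calls was above the nominal level in this comparison. The E6.5 group is the one whose sums held more endoderm than epiblast marker reads, and the part of this in the Jarid2 difference was not tested. The background in this comparison was 3.25% of 12827 genes called in either direction and 1.62% called lower. Its levels of 6.20 and 6.41 in E6.5 embryos 1 and 2 both lay under the lowest E4.5 embryo at 7.58, and the summed cells gave 63.9 and 78.3 CPM. Without E6.5 embryo 1 the estimate was -2.29 and the call was lost (adjusted p = 0.0569, edgeR), while the calls over all genes were 57 higher and 98 lower, against 209 and 208 with all embryos. All 25 epiblast-like cells of E6.5 held a Jarid2 read, and 96.0% did after thinning.

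Eed did not pass in this comparison (-1.74 ± 0.48 SE, adjusted p = 0.0657, edgeR), though its summed cells gave 146, 371, 198 and 252 CPM in E4.5 embryos 1 to 4 and 69.0 and 57.6 CPM in the E6.5 embryos, with no overlap. DESeq2 called Eed as well (adjusted p = 0.00474), beside 11.2% of genes. Cbx7 had an estimate of -1.30 ± 0.55 SE (adjusted p = 0.212, edgeR). Its levels were 5.12 and 5.37 at E6.5 and 5.57 to 6.80 at E4.5. In all, 5 subunits (Eed, Suz12, Jarid2, Mtf2 and Cbx7) had E6.5 levels wholly under those of E4.5 in epiblast-like cells, and Cbx2 had levels wholly above, at 2.62 and 3.78 against 0 to 1.92. Over 11584 genes, 8.51% lay wholly under and 26.7% wholly above. The median number of genes detected in a cell was 6766 in E4.5 epiblast-like cells and 9057 in those of E6.5, and the part of this difference in the shift of levels was not tested. For Cbx2 the summed cells gave 6.91 and 13.3 CPM at E6.5 against 0 to 14.6 CPM at E4.5, which overlap, and the test did not pass (0.87 ± 1.56 SE, adjusted p = 0.830, edgeR).

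At E5.5 the lone embryo had a Jarid2 level of 4.61 in 51 epiblast-like cells, lower than any E4.5 or E6.5 embryo in this lineage, and 40 of the 51 cells held a read. Their median count of detected genes was 5599, the fewest of the epiblast-like groups, and the part of this in the Jarid2 level was not tested. Against E4.5 the summed cells gave an estimate of -2.02 ± 0.57 SE (adjusted p = 0.219, edgeR). None of the 10 subunits was called in this comparison, where 0.460% of genes were, and 1 subunit had an unadjusted p under 0.05. DESeq2 called Jarid2 alone (-2.10, adjusted p = 0.00357), beside 3.96% of genes. Eed was at 223 CPM in the E5.5 epiblast-like sum, within the E4.5 range of 146 to 371 CPM and over the E6.5 values.

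In endoderm-like cells none of the 10 subunits was called between E4.5 and E6.5 by edgeR, where 6.27% of 13708 genes were, and 1 had an unadjusted p under 0.05. That one was Mtf2 (-1.33 ± 0.44 SE, adjusted p = 0.0856, edgeR), which DESeq2 called alone (-1.32, adjusted p = 0.0177), beside 11.4% of genes. Its levels were 7.71, 7.72, 7.60, 7.59 and 8.30 in E4.5 embryos 1 to 5 and 6.61 and 6.54 in the E6.5 embryos. Jarid2 had an estimate of 0.29 ± 0.55 SE (adjusted p = 0.836, edgeR), with 5.38 and 5.55 at E6.5 inside the E4.5 range of 4.0 to 6.09. That estimate was below 0 with Leiden clusters (-0.78), with the 5 unnamed cells counted as endoderm-like (-0.29) and without E6.5 embryo 2 (-0.05), so no direction is given. Pcgf6 had levels of 5.47 and 5.94 at E6.5 above its E4.5 range of 2.04 to 3.72, while its estimate from the sums was 1.42 ± 0.71 SE (adjusted p = 0.266, edgeR). In the endoderm-like sum of E4.5 embryo 5, a single cell held 66.7% of the Pcgf6 reads. Of the 10 subunits, 2 (Pcgf6 and Cbx2) lay wholly above and 1 (Mtf2) wholly under, beside 25.0% and 5.76% of 11662 genes.

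At E6.5 no subunit was called between endoderm-like and epiblast-like cells, where 0.224% of genes were, and none had an unadjusted p under 0.05. DESeq2 called none either, beside 0.732% of genes. The E6.5 epiblast-like sums held more endoderm than epiblast marker reads, and Leiden clusters named no epiblast-like cells at E6.5. The part of this in the values between these lineages, and in their change from E4.5, was not tested. Jarid2 had summed levels of 63.9 and 78.3 CPM in epiblast-like and 46.3 and 55.4 CPM in endoderm-like cells of embryos 1 and 2 (-0.44 ± 0.57 SE, adjusted p = 1, edgeR). Eed had 69.0 and 57.6 CPM against 80.3 and 66.4 CPM (0.25 ± 0.57 SE, adjusted p = 1, edgeR), and its estimate was -0.04 without E6.5 embryo 2. Whether the lineage difference itself changed between E4.5 and E6.5 was tested in the same fit, a test added after the first values were seen. For Jarid2 the change was 2.41 ± 0.72 SE with an adjusted p of 0.0509 in edgeR, which missed the threshold, and for Eed 1.79 ± 0.71 SE with an adjusted p of 0.253. None of the 10 subunits was called, beside 2.08% of all genes, and 3 had an unadjusted p under 0.05, the third being Pcgf6. Over all genes 138 were called higher and 177 lower, against 89 and 102 with no embryo block in the fit. DESeq2 called 1 subunit, Jarid2 (adjusted p = 0.0110), beside 5.74% of genes, and Jarid2 was also called by edgeR under 4 of the other alternatives.

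**Figure D3:**
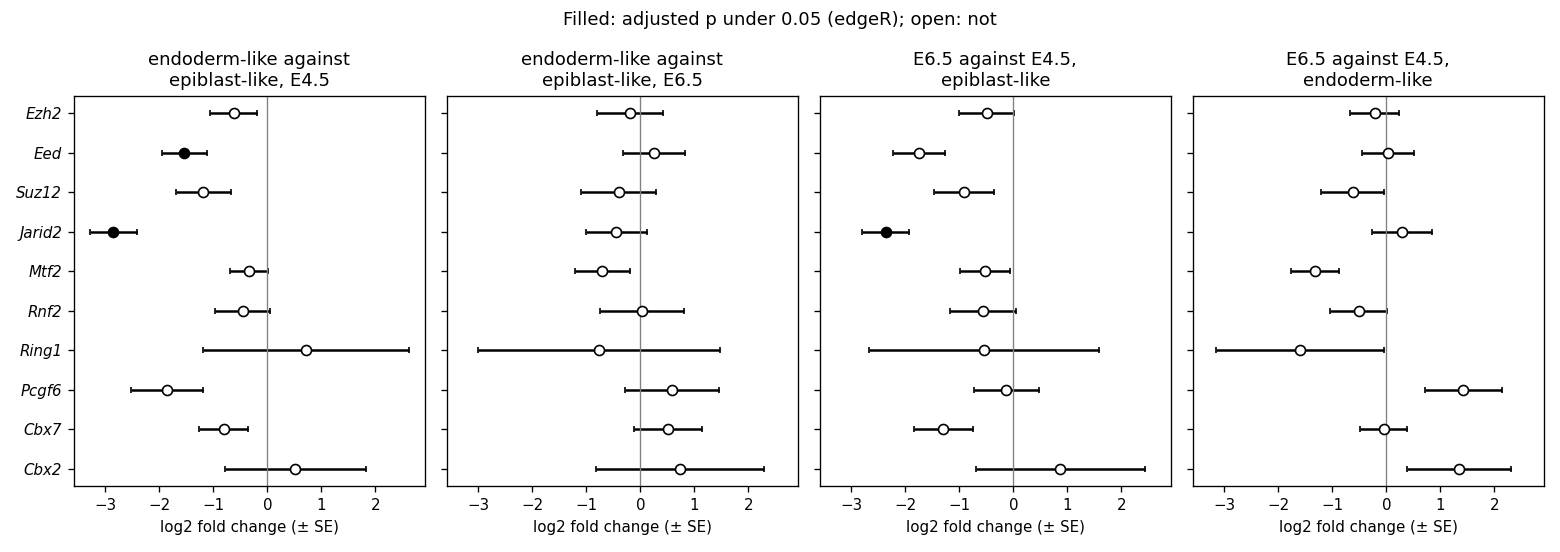
Log2 fold change with its standard error (x axis) of the 10 subunits (y axis) in 4 comparisons of summed cells; filled points have an adjusted p under 0.05 in edgeR. The filled points are Jarid2 and Eed between lineages at E4.5, at -2.85 and -1.54, and Jarid2 between stages in epiblast-like cells, at -2.36.

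Mesoderm-like cells came from E6.5 embryo 2 alone, so their comparison with epiblast-like cells rests on the spread of the other embryos. None of the 10 subunits was called, where 0.112% of genes were, and none had an unadjusted p under 0.05. DESeq2 called none, beside 0.221% of genes. Cbx2 had 60.3 CPM in the 22 mesoderm-like cells and 13.3 CPM in the 15 epiblast-like cells of that embryo (2.07 ± 1.96 SE, adjusted p = 1, edgeR). All 22 mesoderm-like cells held a Cbx2 read, 90.9% after thinning, and in the epiblast-like cells of the embryo 86.7% did, or 53.3% after thinning. Its level was 5.69 in mesoderm-like cells and 0 to 3.78 in the other embryos and lineages. Jarid2 was at 95.0 and 78.3 CPM in the same pair and Ezh2 at 152 and 158 CPM.

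When all kept cells of an embryo were summed, no subunit was called between any pair of stages. Called genes were 6.56% for E6.5 against E4.5, 1.77% for E5.5 against E4.5 and 0.384% for E6.5 against E5.5. An unadjusted p under 0.05 was found for 2, 0 and 2 of the 10 subunits in these comparisons. DESeq2 called 1 subunit, Mtf2, in the first (-0.98, adjusted p = 0.0385), beside 14.0% of genes, and none in the other 2, beside 9.72% and 3.61%. Mtf2 had levels of 7.83, 8.09, 8.04, 7.71 and 8.31 in E4.5 embryos 1 to 5, 5.87 at E5.5, and 6.45 and 6.39 at E6.5. Its edgeR estimate for E6.5 against E4.5 was -0.95 ± 0.34 SE (adjusted p = 0.111). Jarid2 had an estimate of -1.24 ± 0.47 SE (adjusted p = 0.136, edgeR). Endoderm-like cells made up 51 of the 75 kept cells at E4.5, 8 of 59 at E5.5 and 28 of 83 at E6.5, so the lineage make-up moved with the stage in these sums. Pcgf6 and Cbx2 had E6.5 levels above all E4.5 embryos. Pcgf6 lay at 3.66 to 4.05 at E4.5 and at 5.40 and 5.48 at E6.5, with an estimate of 0.58 ± 0.45 SE from the sums (adjusted p = 0.486, edgeR). Cbx2 lay at 0.79 to 1.82 and at 2.99 and 4.32, with an estimate of 1.36 ± 0.71 SE (adjusted p = 0.272, edgeR), and it was read in 34.7% of E4.5 cells and 83.1% of E6.5 cells, or 14.7% and 55.4% after thinning. These 2 subunits above and 1 (Mtf2) below stood beside 28.9% and 8.69% of 12091 genes. Ring1 at 28.0 CPM in the summed cells of E6.5 embryo 1 rested on 1 cell, which held 87.2% of the reads and belonged to the unnamed cells.

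The order of levels differed between subunits. For 6 of them (Ezh2, Eed, Suz12, Jarid2, Mtf2 and Cbx7) the highest of the 7 stage and lineage groups was the E4.5 epiblast-like group, and for the other 4 the E6.5 mesoderm-like group. The first place was within the spread of the next for several, such as Cbx7 at 6.17 ± 0.53 (SD, n = 4) against 6.08 ± 0.40 (SD, n = 2) in E6.5 endoderm-like embryos, and Pcgf6 at 5.76 in mesoderm-like cells against 5.71 ± 0.34 (SD, n = 2) in E6.5 endoderm-like embryos. For Suz12 it was not, since the lowest E4.5 epiblast-like embryo at 6.72 lay above all other groups. The catalytic subunit Ezh2, over all kept cells, had 6.14 to 6.87 at E4.5 and 6.26 and 6.77 at E6.5, and the single E5.5 embryo was at 5.13. For Jarid2 the E4.5 epiblast-like embryos stood first with a mean of 8.38 ± 0.56 (SD, n = 4). The mesoderm-like cells of 1 embryo, at 6.36, lay between the E6.5 epiblast-like embryos at 6.20 and 6.41 (mean 6.31 ± 0.15 SD, n = 2). The E6.5 and E4.5 endoderm-like embryos followed at 5.47 ± 0.12 (SD, n = 2) and 4.89 ± 0.77 (SD, n = 5), with overlapping embryos. E5.5 epiblast-like cells were next at 4.61, and E5.5 endoderm-like cells came last at 1.65. For Eed the E4.5 epiblast-like mean was 7.59 ± 0.40 (SD, n = 4), and the other 6 groups lay between 5.81 and 6.5 with overlapping embryos. In the E5.5 endoderm-like cells, 8 in number, the levels of Ezh2, Jarid2 and Mtf2 were 2.51, 1.65 and 3.70 with reads in 4, 3 and 4 cells, whereas Cbx7 was at 5.31 with reads in 7. A single cell held 84.1% of the Cbx7 reads there.

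Over the 16 sums of embryo and lineage, Suz12 and Mtf2 were the most alike pair of subunits (Pearson r = 0.74 across the sums), and Suz12 and Cbx2 the most opposed (r = -0.64). These sums share embryos and differ in depth, so the values are descriptions. Among 7962 genes with a mean of at least 10 CPM, the genes most like Jarid2 were Lrrc2 (r = 0.91) and Tet1 (r = 0.91), Tet1 being an enzyme that oxidises methylated cytosine. Eed was nearest to Gpbp1l1 (r = 0.84) and Exosc5 (r = 0.83), Ezh2 to Usp22 (r = 0.84) and Med21 (r = 0.83), and Suz12 to Eloc (r = 0.86) and Skp1a (r = 0.85). Mtf2 was nearest to Lnpep (r = 0.89) and Tcf15 (r = 0.86). For the PRC1 subunits the pairs were Fbxo6 and Ostf1 for Rnf2, Hars and Chp1 for Ring1, Chka and Msn for Pcgf6, Tmem126b and Alas1 for Cbx7, and Sltm and Arl2bp for Cbx2, with r from 0.81 to 0.89.

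Beyond the 10 subunits, 39 further Polycomb genes were followed: 9 of PRC2, 25 of PRC1 and 5 that remove the marks. At E4.5, 9 of the 39 were called between the lineages, 4 higher and 5 lower in endoderm-like cells, beside 10.8% of all genes called and 4.01% called lower. Of these 9, 8 belonged to the PRC1 list and 1, Ezhip, to the PRC2 list. Phc1, a subunit of canonical PRC1, had 178, 126, 115 and 145 CPM in the epiblast-like cells of embryos 1 to 4 and 16.1, 0, 0.778 and 1.36 CPM in their endoderm-like cells (adjusted p = 2.49e-12, edgeR). L3mbtl2, a partner of Pcgf6, had 253, 331, 177 and 153 CPM against 34.5, 28.0, 59.1 and 33.5 CPM (-2.61 ± 0.49 SE, adjusted p = 2.53e-05, edgeR). Both were lower in the endoderm-like cells of all 4 embryos. Bcor, of the Pcgf1 form, was also lower in 4 of 4 embryos (-3.17 ± 0.88 SE, adjusted p = 0.00767, edgeR), but in embryo 4 by only 21.5 against 18.0 CPM. Kdm2b (-1.86 ± 0.62 SE, adjusted p = 0.0360, edgeR) and Usp7 (-1.33 ± 0.41 SE, adjusted p = 0.0206, edgeR) were the other 2 lower genes, each lower in 4 of 4 embryos. Phc1 and L3mbtl2 kept their calls in all 16 alternatives (adjusted p at most 4.15e-05 and 0.00237, edgeR or DESeq2). The call was lost for Bcor without embryo 1 (adjusted p = 0.111, edgeR) or 2 (0.156), and for Usp7 without embryo 1 (0.0507), 3 (0.233) or 4 (0.0850). Kdm2b lost its call without E4.5 embryo 1 (0.140), 2 (0.0843) or 3 (0.272), without E6.5 embryo 1 (0.0588), and with the 5 unnamed cells counted as endoderm-like (0.0725), all in edgeR.

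Among the genes higher in endoderm-like cells, Yaf2, Pcgf5 and Ezhip had at most 4.21 CPM in any epiblast-like sum of E4.5, and Bmi1 had up to 12.4 CPM. Yaf2, which binds the Ring1 ligases in variant PRC1, had 1.62, 0, 0 and 0 CPM in epiblast-like and 25.0, 8.59, 33.4 and 27.8 CPM in endoderm-like cells of embryos 1 to 4 (adjusted p = 4.02e-05, edgeR). Pcgf5 had 0, 0.487, 4.21 and 0 CPM against 32.1, 26.3, 40.4 and 8.37 CPM (adjusted p = 0.000172, edgeR). Bmi1, also called Pcgf4, had 0, 9.25, 12.4 and 1.60 CPM against 24.3, 33.8, 26.2 and 62.7 CPM (3.33 ± 1.05 SE, adjusted p = 0.0244, edgeR). Their paralogue Pcgf6, uncalled, had an estimate of the opposite sign. Yaf2 and Pcgf5 kept their calls in all 16 alternatives (adjusted p at most 0.00581 and 0.0159, edgeR or DESeq2). Bmi1 lost its call without E4.5 embryo 1 (adjusted p = 0.143, edgeR), 4 (0.177) or 5 (0.0655) and without E6.5 embryo 1 (0.0600) or 2 (0.0539). Ezhip, an inhibitor of PRC2, had no read in the epiblast-like cells of the 4 embryos, where 3 counts would be 0.534 to 1.62 CPM, and 3.15, 17.7, 37.1 and 16.4 CPM in their endoderm-like cells. It was read in 2 of 10, 1 of 4, 3 of 5 and 1 of 18 endoderm-like cells of embryos 1 to 4, so few cells hold its reads, and its call was lost without embryo 3 (adjusted p = 0.0584, edgeR).

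**Figure D4:**
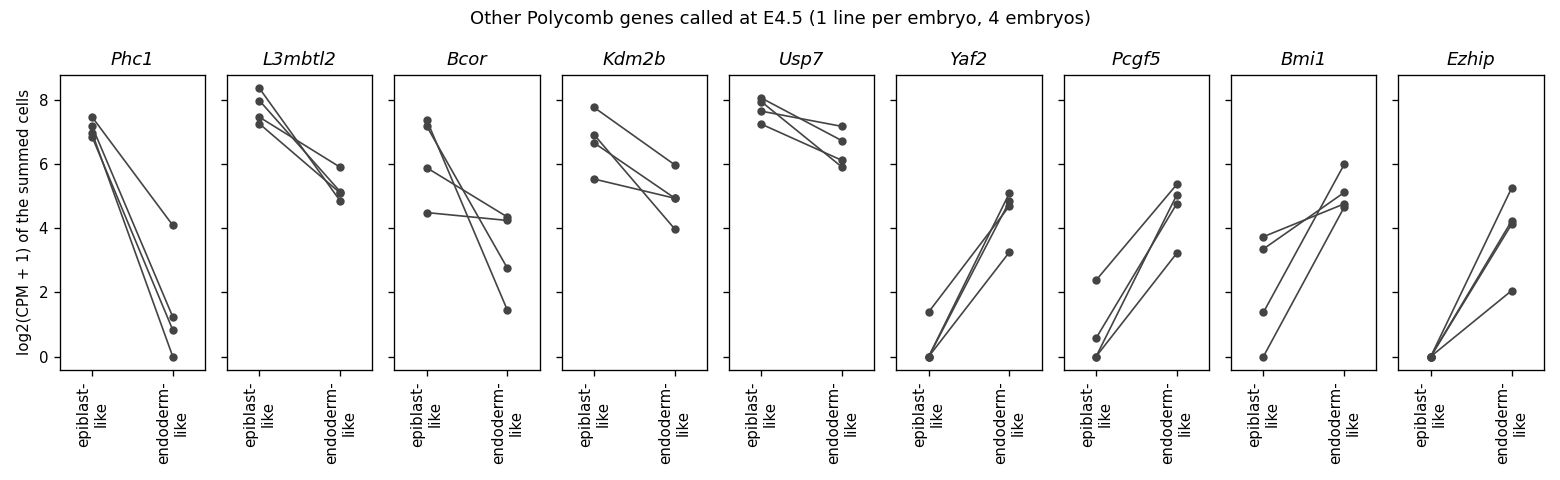
Log2(CPM + 1) of the summed epiblast-like and endoderm-like cells (x axis) of E4.5 embryos 1 to 4, 1 line per embryo, for the 9 further Polycomb genes called between the lineages at E4.5. Phc1 falls from 115 to 178 CPM to 0 to 16.1 CPM in every embryo, and Yaf2 goes from 0 to 1.62 CPM to 8.59 to 33.4 CPM.

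Between stages the call among the 39 genes that recurred was Epop, a PRC2 accessory protein of embryonic stem cells. It fell from E4.5 to E6.5 by 3.04 on the log2 scale in epiblast-like cells (SE 0.67, adjusted p = 0.0218, edgeR), from 153, 96.9, 108 and 87.5 CPM in embryos 1 to 4 to 8.74 and 15.3 CPM. It also fell in endoderm-like cells (-1.84 ± 0.48 SE, adjusted p = 0.0267, edgeR), and in all kept cells at E6.5 (-2.42 ± 0.42 SE, adjusted p = 0.00280, edgeR), and the embryos of the stages did not overlap in any of these. In simulated counts the share of false calls was above the nominal level in every stage comparison. In all, 1 of 39 was called in all kept cells at E6.5, 2 of 37 in epiblast-like cells and 2 of 39 in endoderm-like cells, where 6.56%, 3.25% and 6.27% of all genes were called. In all kept cells the call held in all 13 alternatives (adjusted p at most 0.0489, edgeR or DESeq2). In epiblast-like cells it was lost without E4.5 embryo 1 (adjusted p = 0.0677, edgeR) or 3 (0.0587) and without E6.5 embryo 1 (0.177) or 2 (0.0644). In endoderm-like cells it was lost without E6.5 embryo 1 (0.173) or 2 (0.202), with Leiden clusters (0.471) and with the replicate block (0.0621). In all kept cells of E5.5 the estimate was -3.67 ± 0.63 SE (adjusted p = 0.00693, edgeR), from 1 embryo at 9.69 CPM whose spread was taken from the other stages, against 101 to 172 CPM in the 5 embryos of E4.5. It was the 1 call among the 39 there, beside 1.77% of all genes.

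L3mbtl2 fell in epiblast-like cells, to 34.6 and 56.1 CPM at E6.5 (-2.16 ± 0.49 SE, adjusted p = 0.0279, edgeR). The call was lost without E4.5 embryo 1 (adjusted p = 0.0664, edgeR) or 2 (0.0819), without E6.5 embryo 1 (0.211) or 2 (0.0644), and with the 5 unnamed cells counted as epiblast-like (0.0605). Phc1 rose in endoderm-like cells (4.59 ± 0.98 SE, adjusted p = 0.00665, edgeR), from 0 to 16.1 CPM at E4.5 to 36.6 and 123 CPM in the E6.5 embryos. This call was lost without E6.5 embryo 2 (3.20, adjusted p = 0.484, edgeR) and with Leiden clusters (2.63, adjusted p = 0.820). The change of the lineage difference between E4.5 and E6.5 was called for 3 of the 39, beside 2.08% of all genes, and each call was lost without E6.5 embryo 2. For Phc1 the change was 5.66 ± 1.06 SE (adjusted p = 0.000106, edgeR), and the adjusted p was 0.264 without that embryo and 0.0614 without the replicate block. For L3mbtl2 it was 3.10 ± 0.82 SE (adjusted p = 0.0181, edgeR), and leaving out E6.5 embryo 2 gave 0.326, E6.5 embryo 1 gave 0.114 and E4.5 embryo 2 gave 0.0761 (adjusted p). For Yaf2 the change had the opposite sign, towards epiblast-like cells (adjusted p = 0.0162, edgeR), and its adjusted p rose to 0.399 with E6.5 embryo 2 left out and to 0.438 with embryo 1 left out. In the epiblast-like stage fits 37 of the 39 could be tested. None of the 39 was called between E6.5 and E5.5, between the E6.5 lineages, or between E5.5 and E4.5 in epiblast-like cells, where 0.384%, 0.224% and 0.112% (endoderm-like and mesoderm-like), and 0.460% of all genes were called.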

How the data were processed

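Whole-number read counts per Ensembl gene were deposited by the authors for 264 single cells, without normalization. The submitters' processing notes name HISAT2 2.1.0, featureCounts, Trim Galore 0.4.2 and 0.4.5 and GRCm38, with no roles, and the gene annotation and the use of strand are not given in the sources used here. Symbols were matched through a table of gene names (21907 of 22084 identifiers). Ezh2, Cbx7 and Cbx2 overlap 1 other RefSeq gene each, with which reads could be shared. The bisulfite data of the same cells were not analysed here. By the cell titles E4.5 has 5 embryos, while the study's methods state another number.

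Groups came from stage and embryo in the cell titles. Cells with at least 50000 reads and 2000 genes were kept. Ward clustering (scipy 1.17.1) of log2(CPM + 1) of the 41 markers within each stage gave 3 clusters in E4.5 cells, 2 in E5.5 cells and 4 in E6.5 cells. A cluster took the name of the list with most raised markers, at least 3, a raised marker being at least 1 higher on the log2 scale than in the remaining cells of that stage, with reads in at least 50% of its own cells. An E4.5 cluster with epiblast and endoderm markers both raised stayed unnamed. These cluster numbers and this naming rule were chosen after the clusters were seen. Doublets were not called. The reads carry no molecular identifiers, so the limit set by 3 counts takes in counting error alone.

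Counts were summed per embryo, or per embryo and lineage with at least 3 cells, and the sums entered edgeR 4.0.16 (quasi-likelihood test, filterByExpr, TMM scaling, Benjamini-Hochberg, 0.05). Stage fits held 8 sums (all cells or endoderm-like) or 7 (epiblast-like), with the lone E5.5 embryo assumed to vary like the others. Lineage fits held 16 sums of 1747123 to 79265663 reads with the embryo as a block. The SE is the log2 fold change over the root of the F statistic. The embryos are the replicates, and nothing in the labels tells whether they came from separate litters. The procedure was tested on simulated counts with known changes, where the share of false calls was above the nominal level in every stage comparison and in the mesoderm-like one, and under it in the other lineage comparisons. Alternatives were RLE scaling, no filter, DESeq2 1.42.0, at least 200000 reads and 4000 genes per cell, leaving out each embryo, a replicate block or none, Leiden clusters (scanpy 1.11.5), a pseudocount of 10 and thinning to 50000 reads.

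The subunits, the lists and the tests were chosen with earlier results of these data known. The text names the 10 subunits, up to 6 further Polycomb genes called per comparison by size of the fold change, up to 3 Hox genes by mean CPM, and the 2 genes most correlated with each subunit. Beyond that rule, L3mbtl2, Kdm2b and Usp7 at E4.5 were named after their values were seen.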

Additional observations from a re-analysis of the deposited data

Results flagged for a closer look

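Of 30 groups of 4 or 5 E4.5 embryos tested for an embryo far from the rest, 3 held one, where chance gives about 1 in 20. Suz12 over all kept cells was at 4.96 in E4.5 embryo 1 on the log2(CPM + 1) scale, with the other 4 embryos between 5.96 and 6.34. Mtf2 in endoderm-like cells was at 8.30 in E4.5 embryo 5, with the others between 7.59 and 7.72. Ring1 in endoderm-like cells was at 2.87 in E4.5 embryo 3, which has 5 such cells, with the others between 1.06 and 1.44.

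In CPM of summed cells, Eed was lower in endoderm-like than in epiblast-like cells in 4 of 4 E4.5 embryos and higher in 2 of 2 E6.5 embryos, by 80.3 against 69.0 and 66.4 against 57.6 CPM. The E6.5 estimate was 0.25 in edgeR and -0.04 without E6.5 embryo 2. The change of the difference between the stages was 1.79 on the log2 scale with an adjusted p of 0.253 in edgeR, so it did not pass.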

How the results depend on the processing

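Jarid2 between the lineages at E4.5 kept its call in all 16 alternatives (log2 fold change -3.21 to -2.52, adjusted p from 1.65e-11 to 5.38e-05). Eed kept its call there in 15 of 16 (adjusted p from 0.000158 to 0.0786), and Jarid2 between E4.5 and E6.5 epiblast-like cells in 12 of 13 (adjusted p from 4.91e-07 to 0.0569). In the 16 alternatives, leaving out E4.5 embryo 5, the E5.5 embryo or an E6.5 embryo removed no lineage pair of E4.5. Such a step acts on the E4.5 values only through filter, scaling and spread, also for the further Polycomb genes. Among the embryos with both lineages at E4.5, the Eed call was lost without embryo 3. The number of subunits called between the lineages at E4.5 was 4 with DESeq2, 3 with RLE scaling (Pcgf6 added) and 1 to 3 when each embryo was left out, with 1 without embryo 3 and 3 without embryo 1. For E6.5 against E4.5 in epiblast-like cells it was 2, with Eed added, without the filter, with DESeq2 and with the 5 unnamed cells counted as epiblast-like (an alternative chosen after seeing the data), and 0 to 1 when each embryo was left out. DESeq2 gave 1 for E5.5 against E4.5 in epiblast-like cells, 1 for E6.5 against E4.5 in endoderm-like cells and 1 for E6.5 against E4.5 in all kept cells, where the stricter cell filter also gave 1 (Mtf2, -1.25, adjusted p = 0.0246). The other comparisons kept a count of 0 when each embryo was left out, apart from the change of the lineage difference, where Jarid2 was called with RLE, DESeq2, the stricter cell filter, and without E4.5 embryo 1 or 5. The causes were not tested.

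The calls over all genes also moved. DESeq2 called 2715 genes against edgeR's 1634 between the lineages at E4.5, 1234 against 417 for E6.5 and 436 against 59 for E5.5 in epiblast-like cells, 1349 against 860 in endoderm-like cells, and 1867 against 1008, 1238 against 272 and 450 against 59 for E6.5 over E4.5, E5.5 over E4.5 and E6.5 over E5.5 in all kept cells. For these last 3, the higher and lower calls were 840 and 1027, 292 and 946, and 309 and 141 with DESeq2, and 607 and 401, 141 and 131, and 15 and 44 with edgeR. Without E6.5 embryo 2, the higher and lower calls for E6.5 against E4.5 were 109 and 78 in endoderm-like cells (558 and 302 with all embryos, 99 and 66 with Leiden clusters) and 213 and 150 in all kept cells, and those between the E6.5 endoderm-like and epiblast-like cells were 0 and 1 (27 and 7 with all embryos, 79 and 7 without E6.5 embryo 1). With no filter they were 1043 and 649, 422 and 326, and 109 and 110 for the 3 all-cell comparisons, 712 and 382 for E6.5 and 167 and 93 for E5.5 in epiblast-like cells (209 and 208, and 30 and 29, with it), and 887 and 490 in endoderm-like cells.

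Embryos 1 and 2 of E4.5 and E6.5 share only a number: their deviations from the stage means correlated at -0.0759 and 0.0813. With the replicate block the counts of subunits called were 0 for E6.5 against E4.5 in all cells, 1 in epiblast-like cells (Jarid2, -2.01) and 0 in endoderm-like cells. In the same order, the higher and lower calls over all genes were 355 and 433, 220 and 256, and 218 and 248 with the block. They were 607 and 401, 209 and 208, and 558 and 302 in the main fits. Between E5.5 and the other stages no such block could be fitted, as embryo 7 has no partner. Without the replicate block the lineage counts were 2 at E4.5, with Eed at -1.53 and Jarid2 at -3.04, and 0 at E6.5 for both lineages. Leiden clusters left no epiblast-like cells at E6.5, so comparisons with these gave no value, and the mesoderm-like comparison gave none without E6.5 embryo 2. No call among the 39 further genes changed sign in an alternative, and the calls lost stand beside their values. Of 97 uncalled estimates, 36 changed sign under at least 1 alternative. The group with the highest level was the same for all 10 subunits with a pseudocount of 10, and the group with the largest share of cells holding a read was the same for 8 after thinning. Ring1 and Cbx2 were each read in 34.7% of E4.5 cells, which limits the precision of their E4.5 values.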

Other observations

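The 5 unnamed cells of E4.5, from 4 embryos, held Jarid2 at 7.45 to 9.21 on the log2(CPM + 1) scale, with a median of 8.79, and Eed at a median of 7.90. These values lie around the means of the epiblast-like embryos (7.58 to 8.88 for Jarid2) and over the endoderm-like ones (4.0 to 6.09). They are values of single cells set beside embryo means, so overlap with single endoderm-like cells is not given by these ranges. The 8 unnamed cells of E6.5 had medians of 3.05 for Jarid2 and 3.23 for Eed, and Ring1 was read in 1 of them.

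Hox genes, textbook targets of Polycomb repression, were little read. None of the 39 Hox genes had a read in the epiblast-like sums of E4.5 embryos 1 to 4, while 2 to 5 had reads in the endoderm-like sums of the 5 embryos, at 2.12 to 9.16 CPM in all. The epiblast-like sums hold 4 or 5 cells each, and 3 counts of a gene would be 0.534 to 1.62 CPM there, so lower Hox levels were not detectable, while the endoderm-like sum of embryo 4 holds 18 cells. In the mesoderm-like cells of E6.5 embryo 2, 14 Hox genes had reads, at 22.2 CPM in all, with Hoxb1 at 9.13 CPM. At the same stage 10 and 5 Hox genes had reads in the endoderm-like sums of embryos 1 and 2, at 7.03 and 1.85 CPM, and 4 and 3 in the epiblast-like sums, at 2.63 and 0.135 CPM. The highest mean was that of Hoxa10, which reached 65.5 CPM in the 8 E5.5 endoderm-like cells and was the only Hox gene read there. Hoxb2 reached 8.59 CPM, in the endoderm-like cells of E4.5 embryo 2.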
